A study of Homo sapiens with 9 samples.

Results

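H6PD and 6 other genes of the pentose phosphate pathway were followed in SKNO-1 cells with and without shRNAs against ASXL2. The 7 genes, H6PD, PGD, PGLS, TKT, TALDO1, RPIA and RPE, were 7 of the 25680 gene symbols in the counts, and all 7 passed the filter on low counts. H6PD was chosen by its own differences from control: it was among the genes that passed the threshold with each shRNA when samples were paired by number, so these differences are given below as a description and not as a test. The other 6 were chosen for their place in the pathway.

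SKNO-1, a line grown from human acute myeloid leukaemia, expresses the fusion of RUNX1 with RUNX1T1 (AML-ETO in the labels) and was grown with GM-CSF per the study's methods. All 9 samples carry the fusion. They formed 3 groups of 3: control cells (shControl, labelled EV without explanation), cells with the shRNA labelled SH2 (shASXL2-2) and cells with the shRNA labelled SH3 (shASXL2-3). Within each group the labels number the samples 1, 13 and 25 and do not say what the numbers stand for. The labels name the cell line, although their extraction text is about sorted marrow cells, and the study describes each group as a biological triplicate. The labels do not tie the samples to separate cultures, so the p-values measure the spread between these samples as labelled.

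The pentose phosphate pathway diverts glucose 6-phosphate from glycolysis. Its oxidative branch makes NADPH, the electron donor for lipid synthesis and for keeping glutathione and thioredoxin reduced, and ends in ribulose 5-phosphate. Its non-oxidative branch interconverts that sugar with ribose 5-phosphate for nucleotides and with intermediates of glycolysis. H6PD (hexose-6-phosphate dehydrogenase) works in the lumen of the endoplasmic reticulum, where it carries both the dehydrogenase and the lactonase activity that open the oxidative branch, and it is best known for supplying NADPH to the steroid reductase HSD11B1. In the cytosol PGLS is the 6-phosphogluconolactonase and PGD the 6-phosphogluconate dehydrogenase. RPIA and RPE isomerise and epimerise ribulose 5-phosphate, and transketolase (TKT) and transaldolase (TALDO1) move carbon units between sugars.

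H6PD lies at chr1:9294833-9331396 on the plus strand of GRCh37, the build of the counts. Its main transcript (NM_004285, 9147 bases, 5 exons) is dominated by the last exon, which holds 7829 bases or 85.6% of the length, and the coding part is 25.9% of the transcript. A second annotated transcript starts inside intron 1, and the counts do not tell the 2 starts apart.

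The libraries held 27714431 to 35406063 counts with 1 RefSeq transcript per gene, so that 3 counts, the limit that a count of 0 allows, came to 0.0847 to 0.108 CPM (a count relative to its library's total). This limit and the error of a count cover counting error only. The targeted gene was lower with both shRNAs: ASXL2 measured 70.2 ± 3.94 CPM in shControl, 34.3 ± 3.35 CPM in shASXL2-2 and 32.4 ± 7.66 CPM in shASXL2-3 (SD, n = 3 each), and every knockdown sample lay below every control sample. The 8 myeloid markers examined summed to 7992 to 10363 CPM in shControl, 7152 to 11284 CPM in shASXL2-2 and 8254 to 10653 CPM in shASXL2-3, although CD34 was below 1 CPM in every sample. Markers of T cells, B cells, epithelium, fibroblasts and red cells each summed to no more than 3.34 CPM. Samples that shared a number deviated together in all 9 pairs across groups, so comparisons are also given within numbers. Without the numbers in the fit, 0% of the 14199 genes tested by edgeR passed an adjusted p of 0.05 in any comparison of shRNAs, with 762 genes at an unadjusted p under 0.05 for shASXL2-2, 723 for shASXL2-3, 942 for both averaged and 293 between the shRNAs. DESeq2 without the numbers called 24, 22, 42 and 11 genes in the same order.

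H6PD was lower in each knockdown sample than in the control sample of the same number. In shControl it measured 46.5, 55.5 and 37.7 CPM in samples 1, 13 and 25. In shASXL2-2 it measured 34.1, 39.6 and 24.8 CPM. In shASXL2-3 it measured 32.4, 31.4 and 26.2 CPM. All 6 knockdown samples were below their own number, but the groups overlapped across numbers, since shASXL2-2 sample 13 (39.6 CPM) was above shControl sample 25 (37.7 CPM). Set against the same-numbered control, H6PD stood at 70.2% ± 3.95 (SD, n = 3) with shASXL2-2 and at 65.3% ± 7.50 (SD, n = 3) with shASXL2-3. ASXL2 itself stood at 48.8% ± 4.26 and 45.8% ± 8.13 (SD, n = 3 each) on the same scale. The counts behind H6PD ran from 716 to 1689 per sample, so counting error was small beside the spread of CPM between the samples of a group. Each percentage of control carries the error of 2 counts, which is not small beside the SD of 3.95 with shASXL2-2.

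**Figure D1:**
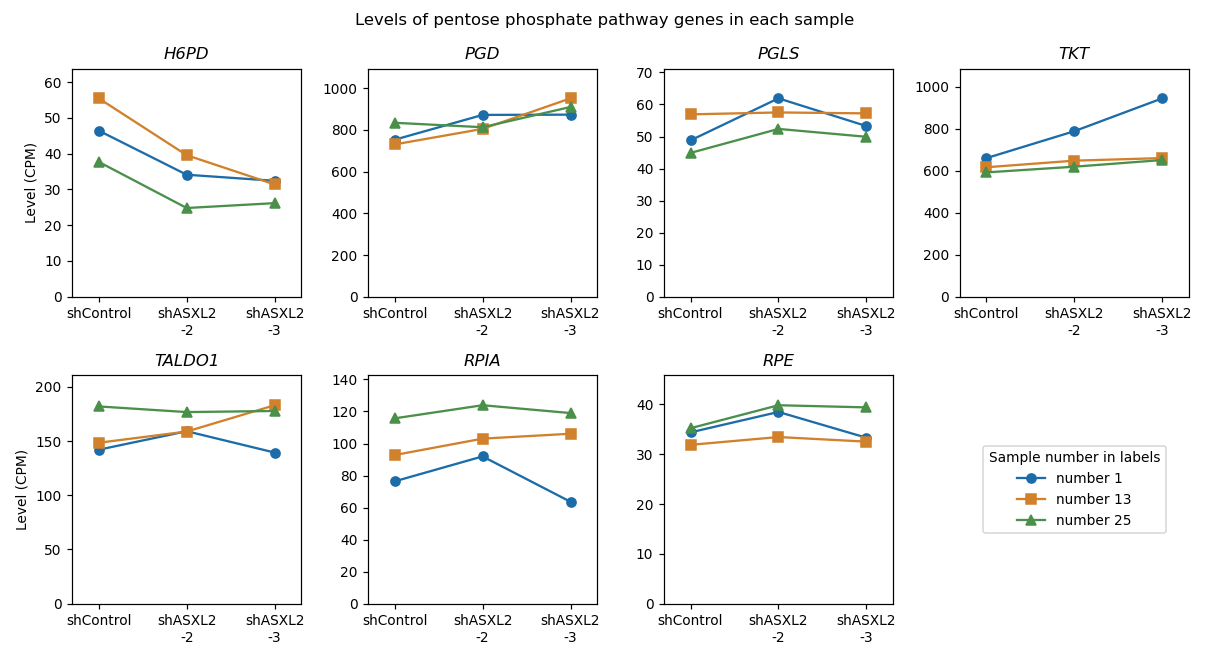
Level of each of the 7 genes in CPM in every sample, with lines joining the 3 samples of 1 number across shControl, shASXL2-2 and shASXL2-3. The H6PD lines all drop from control to either shRNA, from 37.7 to 55.5 CPM down to 24.8 to 39.6 CPM, whereas PGLS and TKT are above their own control in all 6 knockdown samples.

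The fitted log2 fold change of H6PD was -0.50 (SE 0.19) for shASXL2-2, -0.63 (SE 0.19) for shASXL2-3 and -0.57 (SE 0.16) for both averaged. With the number as a block the folds were nearly the same and the errors smaller, at -0.51 (SE 0.09), -0.62 (SE 0.09) and -0.57 (SE 0.07). The adjusted p-values that placed H6PD among the called genes in that edgeR fit were 0.0428 for shASXL2-2 and 0.0238 for shASXL2-3, where 0.282% and 0.416% of all genes tested were called, and 0.232% were called lower for shASXL2-3. With both averaged it was 0.0214, beside 1.1% of all genes called and 0.845% called lower. The next members outside the threshold were PGD and TKT with shASXL2-3, at adjusted p of 0.174 and 0.183 in the paired edgeR fit and 0.0660 and 0.0814 in DESeq2 with the block. Without the numbers the adjusted p-values of H6PD were 0.872, 0.967 and 0.623. Nothing is read from the calls, since they chose the gene.

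The H6PD difference was smaller when transcript length and GC content were corrected for. With per-sample corrections for both in the paired edgeR fit, the log2 fold change was -0.31 (SE 0.07, adjusted p = 0.149) for shASXL2-2, -0.47 (SE 0.07, adjusted p = 0.0498) for shASXL2-3 and -0.39 (SE 0.06, adjusted p = 0.0522) for both averaged. At 9147 bases the H6PD transcript is the longest of the 7 genes. The targeted gene ASXL2, with a transcript of 12849 bases, also had a smaller difference with these corrections. Its paired log2 fold change for both averaged was -1.09 (SE 0.08) before them and -0.90 (SE 0.07) after. What the corrections removed was not tested. The call in the paired fit also changed when single samples were left out, and so did the share of all genes called. When 1 of the 9 samples was left out, the H6PD call held in 2 of 9 fits for each shRNA, without shASXL2-3 sample 1 or sample 13. It was lost in the other 7, with adjusted p up to 0.385 for shASXL2-2 and 0.110 for shASXL2-3. The 2 fits that kept it called 11.2% and 1.85% of all genes tested for shASXL2-2, and 2.58% and 0.648% for shASXL2-3. The other 7 called 0% to 0.0488% for shASXL2-2 and 0.00696% to 0.0558% for shASXL2-3. With both averaged the H6PD call held in 4 of 9, without shASXL2-2 sample 13 or any 1 of the shASXL2-3 samples, and adjusted p reached 0.148 in the rest. Those 4 fits called 0.174% to 12.3% of all genes tested, and the rest 0.0139% to 0.0279%. The H6PD fold moved less, from -0.57 to -0.45 for shASXL2-2 and from -0.68 to -0.52 for shASXL2-3.

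The difference between the 2 shRNAs is made of the same values that chose H6PD and is likewise a description. Its log2 fold change for shASXL2-3 against shASXL2-2 was -0.13 (SE 0.19), -0.11 (SE 0.09) with the number as a block and -0.17 (SE 0.07) with the length and GC corrections added. The paired edgeR fit called 0.106% of all genes between the shRNAs, 0.0423% lower and 0.0634% higher, and 0 of the 7 members. Of the other 6 genes, 0 were called by edgeR or DESeq2 with or without the block, and 0 had an unadjusted p under 0.05 (2.06% of all genes tested by edgeR did without the block and 11.9% with it). This does not show that the shRNAs act alike. The folds of the other 6 genes between the shRNAs in the paired fit ran from -0.18 (RPIA) to 0.14 (PGD).

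The cytosolic enzymes of the oxidative branch did not share the lower level of H6PD. PGD, at chr1:10458649-10480568 about 1127 kb beyond H6PD, was the most abundant member. It measured 753, 731 and 835 CPM in shControl samples 1, 13 and 25, 872, 805 and 813 CPM in shASXL2-2, and 874, 952 and 910 CPM in shASXL2-3. All 3 shASXL2-3 samples were above all 3 controls, while shASXL2-2 overlapped them. Per number, PGD was at 108% ± 9.40 of control in shASXL2-2 and at 118% ± 10.8 in shASXL2-3 (SD, n = 3 each). For both averaged the log2 fold change was 0.17 (SE 0.08, edgeR adjusted p = 0.798), or 0.17 (SE 0.07, adjusted p = 0.220) with the block, and the difference did not pass the test.

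PGLS, at chr19:17622445-17632097, was also not lower. It measured 48.8, 56.9 and 44.9 CPM in shControl, 61.9, 57.5 and 52.4 CPM in shASXL2-2, and 53.3, 57.2 and 49.9 CPM in shASXL2-3. No knockdown sample was below its own control number, but the groups overlapped. The log2 fold change for both averaged was 0.14 (SE 0.10, edgeR adjusted p = 0.883), or 0.14 (SE 0.06, adjusted p = 0.242) with the block.

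In the non-oxidative branch TKT, at chr3:53258728-53290068 on the minus strand, measured 661, 617 and 593 CPM in shControl samples 1, 13 and 25. It measured 789, 649 and 619.8 CPM in shASXL2-2, and 946, 661 and 652 CPM in shASXL2-3. Each knockdown sample was above its own number, and the margin was widest in the samples numbered 1, at 119% of control with shASXL2-2 and 143% with shASXL2-3. The log2 fold change for both averaged was 0.20 (SE 0.14, edgeR adjusted p = 0.878), or 0.19 (SE 0.08, adjusted p = 0.213) with the block.

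TALDO1, at chr11:747415-765012, measured 158 ± 21.4 CPM in shControl, 165 ± 10.3 CPM in shASXL2-2 and 167 ± 23.8 CPM in shASXL2-3 (SD, n = 3 each), and 3 of its 6 knockdown samples were below their own number. RPIA, at chr2:88991191-89050446, measured 95.0 ± 19.8, 106 ± 16.2 and 96.2 ± 29.0 CPM (SD, n = 3 each). RPE, at chr2:210867289-210886984, measured 33.8 ± 1.74, 37.2 ± 3.36 and 35.1 ± 3.76 CPM (SD, n = 3 each). In RPIA and RPE 1 of the 6 knockdown samples, shASXL2-3 sample 1, was below its own number. All 3 shASXL2-2 samples of RPE were above their own number, at 109.97% ± 4.42 of control (SD, n = 3). None of the 3 genes passed the test, with log2 fold changes for both averaged of 0.07 (SE 0.12), 0.09 (SE 0.20) and 0.10 (SE 0.10) and edgeR adjusted p of 0.973, 0.984 and 0.938.

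Of the 6 genes other than H6PD, 0 were called by edgeR or DESeq2 with either shRNA or both averaged, with or without the block. At an unadjusted p under 0.05 there were 0 of 6 for shASXL2-2, 1 for shASXL2-3 and 0 for both averaged in the edgeR fit without the block, and 1, 2 and 3 with it. Over all genes tested the shares at that p were 5.37%, 5.09% and 6.63% without the block and 18.7%, 18.7% and 20.4% with it. All 6 folds for both averaged were above 0, with a median of 0.12 on the log2 scale in the fit without the block. Of all genes tested 53.0% were above 0, and their median was 0.01. RPIA was at -0.044 without shControl sample 1. With the block and the length and GC corrections, TKT was at 0.20, PGD at 0.15 and PGLS at 0.08. RPE and RPIA were then at 0.03 each and TALDO1 at 0.006. The comparisons with each shRNA share the control samples, so agreement between them is no second observation.

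**Figure D2:**
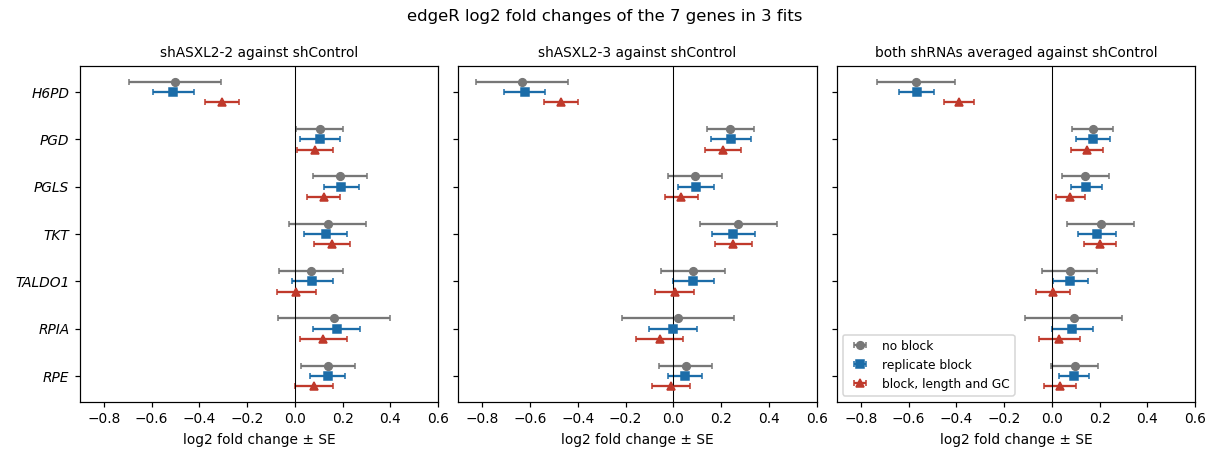
Log2 fold change of each gene against shControl with its standard error, for each shRNA and both averaged, from the edgeR fits without a block, with the replicate number as a block, and with the block and length and GC corrections. For both averaged H6PD lies at -0.57, -0.57 and -0.39 in the 3 fits while the other 6 genes lie above 0. They lie at 0.07 to 0.20 without the block and at 0.006 (TALDO1) to 0.20 (TKT) with the corrections. With the corrections RPE (-0.01) and RPIA (-0.06) lie below 0 for shASXL2-3.

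Several members also differed between the replicate numbers. The samples numbered 1 against those numbered 13 and 25 differed in 46.3% of all genes tested, and 3 of the 7 members were called by edgeR in that contrast, a share close to the background. RPIA was lower in samples 1, at 77.3 ± 14.2 CPM against 101 ± 6.97 in samples 13 and 119.5 ± 4.12 in samples 25 (SD over the 3 groups, n = 3), a log2 difference of -0.51 (SE 0.09, adjusted p = 0.00161). TKT was higher in samples 1, at 798 ± 143 CPM against 642 ± 22.6 and 621 ± 29.5, a log2 difference of 0.33 (SE 0.08, adjusted p = 0.00672). TALDO1 was lower in samples 1, at 147 ± 10.7 CPM against 163 ± 17.8 and 179 ± 2.76, a log2 difference of -0.22 (SE 0.07, adjusted p = 0.0336) that lost its call without shControl sample 1, shControl sample 25 or shASXL2-3 sample 1, with adjusted p of 0.0909, 0.0783 and 0.128. Those 3 fits called 39%, 36.4% and 33.7% of all genes tested. H6PD did not pass, at 0.10 (SE 0.07, adjusted p = 0.269).

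Between the samples numbered 25 and those numbered 13, 5.87% of all genes were called (3.1% lower, 2.77% higher) and H6PD was the 1 member of 7 among them. It averaged 37.7 ± 7.66 CPM in samples 1, 42.2 ± 12.2 in samples 13 and 29.6 ± 7.09 in samples 25 (SD over the 3 groups, n = 3). The log2 difference of samples 25 against 13 was -0.50 (SE 0.09, adjusted p = 0.0110, edgeR), close in size to the fold with an shRNA, and every group's sample 25 was below its sample 13. For H6PD this value comes from the paired fit, and from the spread in it, by which the gene was chosen. Its adjusted p is therefore also a description and not a test. The call was lost without shControl sample 13 (adjusted p = 0.0637), shControl sample 25 (0.0963), shASXL2-2 sample 13 (0.0805) or shASXL2-2 sample 25 (0.0996), with differences of -0.46, -0.48, -0.43 and -0.43. In the same order these fits called 1.76%, 0.348%, 0.621% and 0.613% of all genes. Without shASXL2-3 sample 1, 4 members were called, PGLS, RPE and RPIA beside H6PD, in a fit that called 19.2% of all genes. What the numbers stand for is unknown, so a cause of these differences was not tested.

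Levels of different genes were compared per kilobase of the MANE Select transcript. The mean over 9 samples was 370 CPM per kb for PGD, 229 for TKT, 136 for TALDO1, 54.7 for RPIA, 53.2 for PGLS, 11.1 for RPE and 3.99 for H6PD. PGD, TKT and TALDO1 had ranges over samples that did not overlap, nor did those of RPE (10.02 to 12.5 CPM per kb) and H6PD (2.71 to 6.07). RPIA (35.1 to 68.3) and PGLS (44.5 to 61.4) overlapped and were not ordered. H6PD was thus the least abundant of the 7 per length, although its CPM was near those of RPE and PGLS. The choice of RefSeq row changed these counts little, since the other rows of H6PD, TKT and RPE held at least 99.3% of the counts of the row used. RPEL1, a near copy of RPE with which reads could be shared, averaged 0.0909 CPM, and the transketolase relatives TKTL1 and TKTL2 averaged 0.00348 and 0 CPM.

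**Figure D3:**
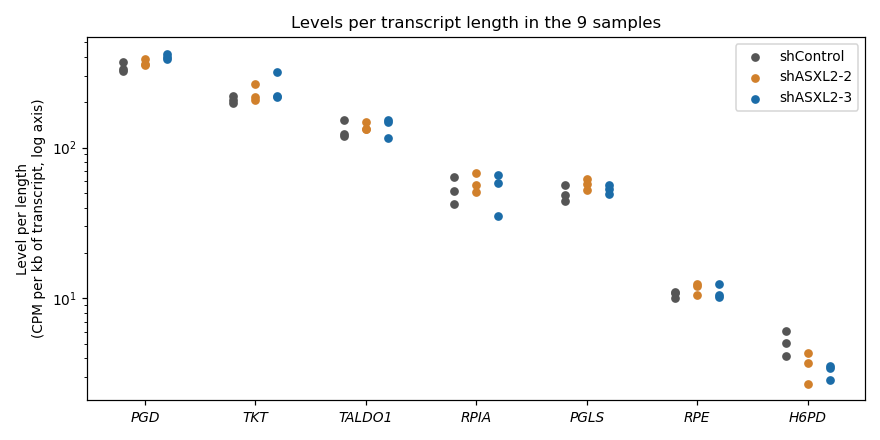
Level of the 7 genes in CPM per kilobase of transcript on a log axis, 1 point per sample with the group marked. PGD is highest at 322 to 420 and H6PD lowest at 2.71 to 6.07, and the points of RPIA and PGLS overlap.

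Across the 9 samples RPIA and TALDO1 had the most alike levels among the members (Pearson r = 0.901 on log2 CPM), while H6PD ran against PGD (r = -0.733) and RPIA against TKT (r = -0.763). With the mean of each number taken out, these were 0.703, -0.798 and -0.356, and PGLS and RPE were then the most alike (0.860). These values describe 9 samples that share numbers and groups. The genes most like H6PD over the 9 samples were IQGAP2 (r = 0.985), PIK3C2B (0.974), PACS1 (0.963), MAML1 (0.962) and ZNF837 (0.962). After the mean of each number was taken out they were PIF1 (0.988), MIR6851 (0.985), SYTL3 (0.984), PIK3C2B (0.983) and IQGAP2 (0.978). IQGAP2, a scaffold protein, and PIK3C2B, a phosphoinositide kinase, were thus in both sets. Both sets were picked from all genes tested by the same 9 H6PD values, so being in both is no second observation. Those values hold the differences that chose H6PD. ZNF837, SYTL3 and MIR6851 rested on low levels, of 2.38, 1.47 and 0.418 CPM.

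Of the 17 other tested genes around H6PD on chromosome 1, 11 had a fold below 0 for both averaged in the paired fit, beside 47.9% of all genes tested. Of the 17, 0 were called by edgeR, and the lowest adjusted p was 0.110 (CLSTN1, -0.23). A shift of the region as a whole was not tested. The nearest tested gene before it was GPR157, 106 kb away and at 1.13 CPM, and its paired fold for both averaged was -0.51 on the log2 scale (SE 0.18, edgeR adjusted p = 0.156). The nearest after it was SLC25A33, a mitochondrial pyrimidine nucleotide carrier 268 kb away, at 30.2 CPM with 0.01 (SE 0.11, adjusted p = 0.958).

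**Figure D4:**
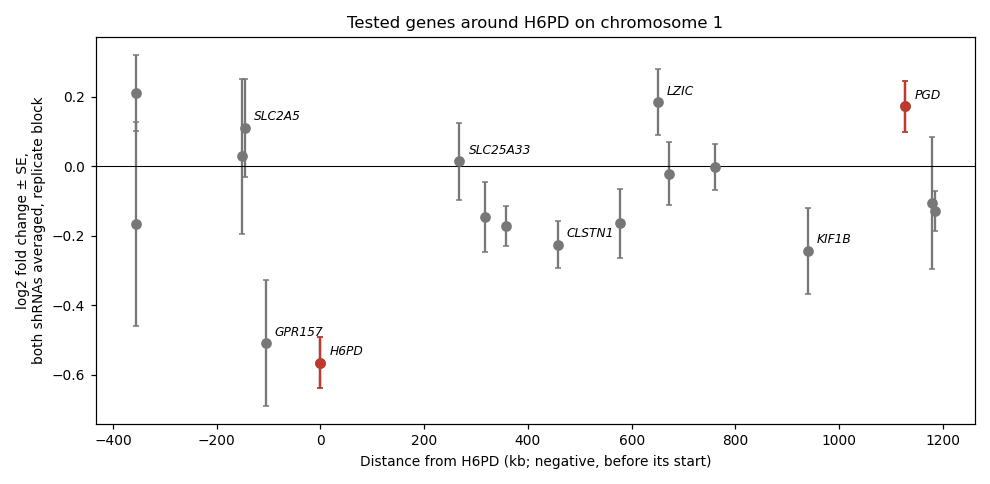
Log2 fold change for both shRNAs averaged in the fit with the replicate block, with its standard error, of the tested genes around H6PD against their distance from H6PD in kilobases. H6PD stands at -0.57, SLC25A33 at 0.01 and GPR157, at 1.13 CPM, at -0.51 with a wide error.

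HSD11B1, the reductase that H6PD supplies with NADPH, had 0 counts in all 9 samples, which allows at most about 0.0847 to 0.108 CPM. The list of H6PD's partners in the endoplasmic reticulum (transport and hydrolysis of glucose 6-phosphate, and steroid reduction) had 8 tested genes of 13 in the files, and 0 were called by edgeR for either shRNA or both averaged, with or without the block. Its median fold for both averaged was 0.08 in both fits, beside 0.01 over all genes. The 3 most abundant were HSD17B12, a ketoacyl reductase, G6PC3, the glucose 6-phosphatase found in most tissues, and NR3C1, the glucocorticoid receptor, at 169, 96.8 and 95.0 CPM. Their paired log2 fold changes were 0.18, 0.09 and -0.08, with edgeR adjusted p of 0.227, 0.474 and 0.492. SLC37A4, which carries glucose 6-phosphate into the lumen where H6PD works, averaged 47.2 CPM and had a fold of 0.07 (adjusted p = 0.530).

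The other lists around the pathway gave no edgeR call for either shRNA or both averaged, with or without the block. Among 11 tested of 15 further enzymes of the pathway the median for both averaged was 0.07 in both fits, and PRPS2 and PRPS1, which make phosphoribosyl pyrophosphate from ribose 5-phosphate, had paired folds of 0.19 (adjusted p = 0.141) and 0.10 (adjusted p = 0.393). Among 14 tested of 15 other sources of NADPH the median was 0.09, or 0.08 with the block. The proton-driven transhydrogenase NNT (338 CPM), isocitrate dehydrogenase IDH2 (326 CPM) and the folate enzyme MTHFD2 (295 CPM) had paired folds of -0.04, 0.14 and 0.12, with edgeR adjusted p of 0.737, 0.258 and 0.429. Among 14 tested of 17 users of NADPH the median was 0.06 in both fits. Fatty acid synthase FASN, at 1351 CPM, had a paired fold of -0.28 (SE 0.09, edgeR adjusted p = 0.121), the NADPH oxidase subunit CYBA 0.09 (adjusted p = 0.508) and the thioredoxin reductase TXNRD1 0.00 (adjusted p = 0.977).

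At the branch point between glycolysis and the pathway the list of enzymes acting on glucose 6-phosphate and fructose 6-phosphate, which also holds the sugar transporters SLC2A1, SLC2A3 and SLC2A5 (14 genes tested of 16), had median folds on opposite sides of 0 with the 2 shRNAs. Its median paired fold was -0.08 for shASXL2-2, with 10 of 14 genes below 0 beside 48.8% of all genes tested. For shASXL2-3 the median was 0.29, with 3 of 14 below 0 beside 48.2%. At an unadjusted p under 0.05 edgeR with the block had 1 and 8 of 14, beside 18.7% of all genes for each shRNA. The shASXL2-3 samples spread widely in GPI (1014 ± 364 CPM), SLC2A3 (95.0 ± 70.4) and PFKFB4 (73.3 ± 105), but not in PFKL (374 ± 30.4, SD, n = 3 each). PFKFB4 also spread widely in shControl (22.2 ± 30.5) and shASXL2-2 (24.3 ± 36.5). GPI (725 ± 84.5 and 763 ± 160) and SLC2A3 (76.5 ± 9.80 and 66.7 ± 14.4) spread less in those groups. Between the samples numbered 1 and the rest, edgeR called 10 of the 14 genes, beside 46.3% of all genes tested. The difference between the shRNAs was not tested for the list as a whole. Between the shRNAs edgeR with the block called 0 of its 14 genes, with 6 at an unadjusted p under 0.05 (11.9% of all genes tested were), and DESeq2 with the block called 2, GPI and PGM1, among 150 of all genes (1.19%). Glucose 6-phosphate isomerase GPI (834 CPM), the phosphofructokinase PFKL (374 CPM) and hexokinase HK2 (310 CPM) had paired folds for both averaged of 0.25, -0.09 and 0.02, with edgeR adjusted p of 0.193, 0.464 and 0.920. In the NRF2 list, the stress pathway that controls several of these enzymes, 10 of 10 genes were tested and the median was 0.07 in both fits. Its repressor KEAP1, the factor NFE2L2 and its partner MAFG had paired folds of 0.03, 0.10 and -0.03, with edgeR adjusted p of 0.859, 0.304 and 0.871. At an unadjusted p under 0.05 the paired fit for both averaged held 1 of 8 genes of the endoplasmic reticulum list, 2 of 11 further pathway enzymes, 1 of 14 other NADPH sources, 4 of 14 users, 4 of 14 branch point genes and 1 of 10 NRF2 genes, where 20.4% of all genes tested did. DESeq2 with the block called 2.97%, 3.97% and 4.82% of all genes for shASXL2-2, shASXL2-3 and both averaged. Its calls in these lists included NQO1 and OSGIN1 for shASXL2-2, with paired edgeR folds of 0.56 and 0.59. For shASXL2-3 they included GPI (0.44) and C12orf5 (TIGAR, a fructose bisphosphatase, -0.76). For both averaged they included FASN (-0.28), NQO1 (0.38) and OSGIN1 (0.49). Without the block DESeq2 called none of the genes of these lists.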

How the data were processed

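Messenger RNA counts of 9 SKNO-1 samples were used. The authors deposited whole-number counts per RefSeq transcript on hg19, not normalized, and per the labels STAR, featureCounts and DESeq2 were used, with no version or role given here. Per the study's methods the libraries were unstranded, so overlapping antisense reads could not be told apart. Reads shared by isoforms were counted in each of them, so that all 48104 rows held 2.24 times the counts of 1 row per symbol, and the row with the highest total was used. Genes were filtered by filterByExpr (minimum count 10, minimum total 15) and tested with edgeR 4.0.16 (R 4.3.3) by the quasi-likelihood F test with TMM scaling and Benjamini-Hochberg adjustment, 1 coefficient per group and 6 residual degrees of freedom. The alternative with the replicate number as a block left 4. Same-numbered samples of different groups deviated from their group means with a correlation of 0.598 on average and at least 0.398 over 9 pairs, so the numbers were taken to pair the samples. Length and GC corrections used splines of 5 degrees of freedom over 12655 genes. DESeq2 1.42.0 and the other alternatives are given in the closing section, and the edgeR script was tested on simulated data. The members and gene lists were chosen with earlier results of these data known. Named genes were every member, the 3 most abundant and any called genes of each list, the nearest tested gene on each side of H6PD and the 5 most correlated genes, and SLC37A4, HSD11B1 and the DESeq2 calls were added after values were seen. Some items of the gene lists and promoter windows are not reported here.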

Additional observations from a re-analysis of the deposited data

How the results depend on the processing

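The calls of H6PD are a description, since these differences chose it, and the settings below reuse the same 9 samples. The other 6 genes gained no call for shASXL2-2, shASXL2-3 or both averaged in the settings run. Without the block 0 of the 7 members were called. With the replicate block 1 of 7, H6PD, was called for shASXL2-2, shASXL2-3 and both averaged, beside 0.282%, 0.416% and 1.1% of all genes tested. DESeq2 with the block also called 1 in each, beside 2.97%, 3.97% and 4.82%. The paired fit without the 3 samples numbered 1, chosen after seeing the data, also called 1, beside 1.9%, 2.42% and 2.63%. With the block and length and GC corrections 1 was called for shASXL2-3 alone, and with all RefSeq rows summed and the block 1 for shASXL2-3 and both averaged but not shASXL2-2 (adjusted p = 0.0756). The block changed no other member's call. Leaving out 1 sample gave 0 to 0 members without the block and 0 to 1 with it, 2 to 3 for samples 1 against the rest and 0 to 4 for samples 25 against 13. In the same order these fits called 0% to 0.014%, 0% to 12.3%, 33.7% to 43.8% and 0.348% to 19.2% of all genes tested. RPIA for both averaged ran from -0.044 (without shControl sample 1) to 0.26, and H6PD between the shRNAs from -0.28 to 0.033 (without shASXL2-2 sample 13), so both changed sign. The paired fit called 40, 59 and 156 genes of all tested for shASXL2-2, shASXL2-3 and both averaged, the length and GC correction 4, 43 and 19, the sum of rows 4, 26 and 38, and DESeq2 with the block 362, 469 and 606. The cause of these differences was not tested. H6PD, RPE and PGLS rest on the fewest counts, and 3 samples per group limit all comparisons.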
